A study of Mus musculus with 4 samples.

Results

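Peaks of H3K79me2 on intergenic long non-coding RNA (lncRNA) genes were taken from the broad peak lists of 2 ChIP-seq libraries of bone marrow-derived dendritic cells (BMDCs). A peak belonged to the set if at least 1 bp of it lay in the body of a RefSeq lncRNA gene that was over 1 kb from every protein-coding gene body. Malat1, Neat1 and Lncpint were left out by the rule. Of 12727 lncRNA genes in the RefSeq table of GRCm38.p6, 7322 met the distance rule. The set held 504 of 11926 peaks in PBS (4.23%, 95% Clopper-Pearson interval 3.87 to 4.6) and 408 of 9805 peaks in lysine (4.16%, 3.77 to 4.58), 912 of 21731 peaks in all. They lay on 562 genes, of which 415 carry a Gm number, 106 a Rik name, 6 a LOC number and 35 another symbol. Because some lncRNA genes overlap each other, the 562 genes form 525 separate loci, and 73 of the genes share a locus with another gene of the set.

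The cells were unmodified BMDCs of C57BL/6J mice, kept in RPMI medium with fetal bovine serum and fixed with formaldehyde. BMDCs are antigen-presenting cells grown from bone marrow in culture. The study has 4 samples, 1 H3K79me2 library and 1 input library from cells given PBS, and the same from cells given 18 mM of the amino acid lysine for 6 h, and the labels give no time for PBS. With 1 H3K79me2 library per condition nothing could be tested between the conditions: every difference below describes these 2 libraries, and the intervals cover counting error only. Depth is unknown, since the lists hold no read totals.

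H3K79me2 is dimethylation of a lysine on the surface of the histone H3 core. It is set by Dot1l, the methyltransferase that travels with RNA polymerase II elongation complexes, and it typically lies from the start into the first part of transcribed genes. LncRNAs are transcripts, often spliced and capped like mRNAs, that are not translated into a known protein, and many are made in a few cell types only. Some act on a neighbouring gene, some carry small nucleolar RNAs (snoRNAs) or microRNAs (miRNAs) in their transcripts, and for most of the genes named by a number no function is known. The marker genes went with the labelled cell type in part. Of 12 dendritic and myeloid markers, PBS peaks lay on 8 and lysine peaks on 6, with 8999 and 5725 bp covered in all. Among all protein-coding genes 34.0% had a PBS peak and 31.4% a lysine peak. Cd86 (2478 and 1081 bp), H2-Ab1 (2442 and 0 bp) and Itgax (935 and 431 bp) were shorter in lysine. So were Zbtb46 (310 and 0 bp) and Flt3 (442 and 421 bp). Cd74 (900 and 2134 bp), Csf2ra (1459 and 1512 bp) and Irf8 (33 and 146 bp) were longer. Spi1, Irf4, Batf3 and Csf2rb had 0 bp in both lists. None of 4 B cell markers and none of 6 genes of neurons, glia and liver had a peak, and of 4 T cell markers Cd3d had 519 bp in PBS and 555 bp in lysine. Given the shares of all coding genes, low counts in lists this short carry little weight.

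The first sequences shown are promoter windows of 300 bases, 250 before to 50 after the start in RefSeq (GRCm38.p6), of 5 lncRNA genes whose window lay under a peak in both lists. They are printed 5′ to 3′ on the strand of the gene, with each CpG dinucleotide in capitals. Covered windows more often held 10 or more CpGs than uncovered ones in the counts given below, but many did not. The windows of Gm32287 and Gm36199, also covered in both lists, have 9 each. Snhg5, a snoRNA host gene, has 36 CpGs in its window (chr9:88522848-88523147, minus strand), and Dancr, another snoRNA host, has 18 (chr5:74092810-74093109, plus strand). Gm34157, which held the peak of highest fold enrichment in PBS, has 19 (chr9:61370441-61370740, minus strand). Mir22hg, the host of miR-22, has 12 (chr11:75461289-75461588, plus strand), and Ptgs2os2, an lncRNA induced with inflammatory genes in myeloid cells, also has 12 (chr1:150164899-150165198, minus strand).
Snhg5: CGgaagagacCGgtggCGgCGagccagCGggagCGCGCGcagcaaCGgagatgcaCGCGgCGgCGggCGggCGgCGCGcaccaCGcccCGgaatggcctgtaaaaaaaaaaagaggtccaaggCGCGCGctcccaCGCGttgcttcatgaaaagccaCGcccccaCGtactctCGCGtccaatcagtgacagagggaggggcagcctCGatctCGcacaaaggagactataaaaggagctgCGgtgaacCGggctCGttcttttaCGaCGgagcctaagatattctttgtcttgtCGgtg
Dancr: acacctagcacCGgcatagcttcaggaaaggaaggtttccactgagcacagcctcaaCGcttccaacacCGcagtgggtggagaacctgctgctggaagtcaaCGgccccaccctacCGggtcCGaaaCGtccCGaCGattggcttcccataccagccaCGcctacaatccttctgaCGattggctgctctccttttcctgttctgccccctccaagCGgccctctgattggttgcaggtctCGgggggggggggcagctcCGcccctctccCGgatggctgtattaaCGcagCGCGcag
Gm34157: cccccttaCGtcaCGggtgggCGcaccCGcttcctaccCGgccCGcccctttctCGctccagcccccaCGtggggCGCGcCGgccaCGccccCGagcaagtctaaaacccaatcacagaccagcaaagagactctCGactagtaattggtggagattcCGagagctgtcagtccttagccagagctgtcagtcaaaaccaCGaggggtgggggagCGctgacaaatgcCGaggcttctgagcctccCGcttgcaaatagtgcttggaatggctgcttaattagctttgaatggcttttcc
Mir22hg: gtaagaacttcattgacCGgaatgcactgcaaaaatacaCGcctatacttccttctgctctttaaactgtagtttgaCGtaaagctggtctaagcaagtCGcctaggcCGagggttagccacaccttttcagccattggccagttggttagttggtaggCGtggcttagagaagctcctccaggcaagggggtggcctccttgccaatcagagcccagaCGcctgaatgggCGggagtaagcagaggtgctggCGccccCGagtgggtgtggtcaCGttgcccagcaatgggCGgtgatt
Ptgs2os2: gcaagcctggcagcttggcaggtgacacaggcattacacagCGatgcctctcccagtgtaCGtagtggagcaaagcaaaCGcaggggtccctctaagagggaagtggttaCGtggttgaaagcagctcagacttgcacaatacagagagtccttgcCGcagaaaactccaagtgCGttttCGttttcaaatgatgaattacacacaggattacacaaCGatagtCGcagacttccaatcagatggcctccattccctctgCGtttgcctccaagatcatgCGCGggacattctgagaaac

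For contrast, Gm33073 and Gm34346 had peaks in the body and none on the window. The window of Gm33073 (chr13:83120488-83120787, minus strand) and that of Gm34346 (chr10:98882688-98882987, minus strand) hold 4 CpGs each, again in capitals.
Gm33073: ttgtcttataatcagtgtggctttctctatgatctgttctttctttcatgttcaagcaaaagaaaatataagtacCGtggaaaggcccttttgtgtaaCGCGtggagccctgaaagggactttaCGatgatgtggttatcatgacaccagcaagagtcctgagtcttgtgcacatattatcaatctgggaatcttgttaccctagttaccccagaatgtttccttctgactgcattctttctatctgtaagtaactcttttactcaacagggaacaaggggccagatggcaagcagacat
Gm34346: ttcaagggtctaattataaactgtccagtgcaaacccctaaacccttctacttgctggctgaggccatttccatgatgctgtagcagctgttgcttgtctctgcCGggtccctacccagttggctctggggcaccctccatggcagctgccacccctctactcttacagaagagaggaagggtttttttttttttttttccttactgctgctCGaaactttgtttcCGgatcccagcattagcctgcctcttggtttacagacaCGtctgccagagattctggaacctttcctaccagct

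H3K79me2 peaks were found on few of the intergenic lncRNA genes, and on fewer in lysine than in PBS. In PBS 445 of the 7322 genes had a peak (6.08%, 5.54 to 6.65) and in lysine 374 (5.11%, 4.61 to 5.64). A peak in both lists was found for 257 genes (3.51% of the 7322), in PBS only for 188 (2.57%) and in lysine only for 117 (1.6%). Of 21896 protein-coding genes, the background for these counts, 26.7% had a peak in both lists, 7.31% in PBS only and 4.69% in lysine only. Of the lncRNA genes with a PBS peak 57.8% (53.0 to 62.4) also had a lysine peak, against 78.5% (77.5 to 79.4) of the protein-coding genes. Of those with a lysine peak 68.7% (63.7 to 73.4) also had a PBS peak, against 85.1% (84.2 to 85.9). Both shares were lower for the lncRNA genes, with intervals that do not overlap. When both lists were held to their 9805 strongest peaks by −log10 q, the order turned: 126 lncRNA genes had a peak in PBS only and 138 in lysine only.

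Covered length here means the bp of a gene body that lie under peaks. With each base counted a single time, lncRNA bodies had 238611 bp under peaks in PBS and 183864 bp in lysine, or 0.179% and 0.138% of their 133 Mb. The lysine to PBS ratio of these lengths was 0.771, that of protein-coding bodies was 0.791 and that of all peaks 0.796, so the lncRNA bodies stood close to the whole of each list. The ratio was 0.955 with equal numbers of peaks. A covered gene typically held a single small peak. The median covered length was 416 bp in PBS (quartiles 317 and 641) and 404 bp in lysine (308 and 610), and 379 of the 445 PBS genes and 327 of the 374 lysine genes had 1 peak. At least 3 peaks lay on 16 genes in PBS and on 7 in lysine. At least 500 bp were covered on 167 genes in PBS and on 131 in lysine.

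Of the 257 genes covered in both lists 153 (59.5%) had a shorter and 103 (40.1%) a longer covered length in lysine, with a median difference, lysine minus PBS, of -47 bp (quartiles -179 and 56). Of the 5842 protein-coding genes covered in both, 57.0% were shorter and 42.6% longer in lysine, and their median was -23 bp. The split of the lncRNA genes was thus near that of the coding genes. Differences of 1000 bp or more were rare among genes with a peak in either list. Of 562 such lncRNA genes 20 were that much shorter in lysine and 13 that much longer. Of 8469 such protein-coding genes 334 were that much shorter and 98 longer.

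**Figure D1:**
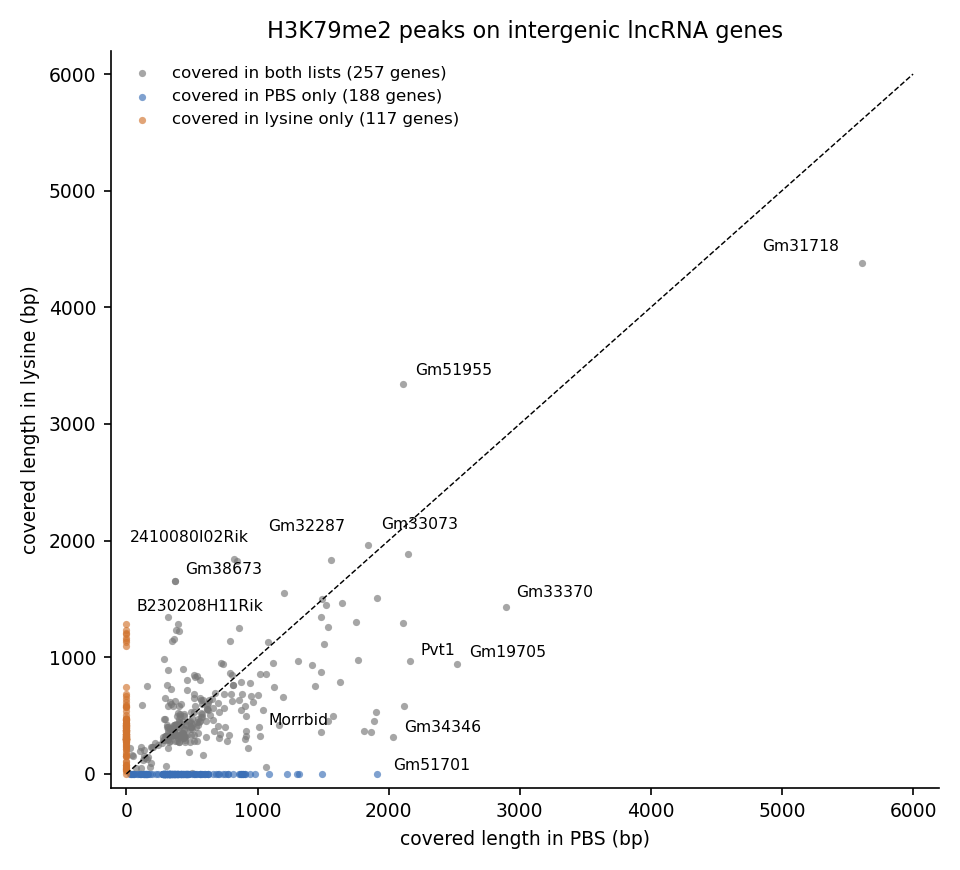
Covered length (bp) of each of the 562 intergenic lncRNA genes with a peak, PBS on the x axis and lysine on the y axis, 1 point per gene. Grey points are the 257 genes covered in both lists, blue the 188 covered in PBS only and orange the 117 covered in lysine only, and the dashed line marks equal lengths. Most points lie below 1000 bp, and Gm31718 has the most covered bp in both lists (5609 and 4376).

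Genes described in immune or myeloid cells come first, since their roles are known best. Of 10 such genes under the rule, PBS peaks lay on 6 and lysine peaks on 5 of the same 6, against 6.08% and 5.11% of all 7322 genes. Their covered length summed to 4934 bp in PBS and to 2529 bp in lysine. The median difference over the 10 genes was 0 bp. The larger sum in PBS came from Pvt1, Mirt1 and Morrbid, which had the largest losses of the list. The other 3 genes with a peak summed to 869 and 1233 bp, mostly through Oip5os1 (293 and 646 bp). As the genes left out were picked by their values, the direction of the rest carries no weight. Ptgs2os2, also called lincRNA-Cox2, regulates inflammatory genes in macrophages and lies 50.8 kb from Ptgs2, the gene of cyclooxygenase 2. Its start held 1 peak in each list, of 750 bp in PBS and 659 bp in lysine, with fold enrichments of 7.79 and 7.02 and 274 and 265 bp in the body. It was among the steadiest of the set. Pvt1, the lncRNA next to the proto-oncogene Myc (47.6 kb away), was covered over 2160 bp in PBS against 968 bp in lysine. The PBS peaks on Pvt1 were 1381, 345 and 434 bp wide and the lysine peaks 520 and 448 bp, and only the first PBS peak and the second lysine peak overlapped each other. Myc itself had 492 bp in PBS and 245 bp in lysine, so both genes of the pair were longer in PBS.

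Morrbid restrains Bcl2l11, the gene of the death-promoting protein Bim, in short-lived myeloid cells, and lies 136 kb from it. It had 1019 bp under 3 peaks in PBS and 328 bp under 1 peak in lysine, and Bcl2l11 had 2095 and 946 bp. A peak on Morrbid at chr2:128364232-128364544 in PBS was met by the lysine peak, and the other two PBS peaks were not. Oip5os1, also known as Cyrano, binds and helps destroy a miRNA. It was covered from its start over 293 bp in PBS and 646 bp in lysine, but by the narrow blocks within the peaks it was the shorter in lysine, with a difference of -170 bp. Mirt1 had 886 bp in PBS and 0 bp in lysine, from 1 peak with a fold enrichment of 3.39 and a −log10 q of 1.55, close to the weakest peaks of its list. Lncenc1, Miat, Mir155hg and Norad of the same list had no peak.

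The snoRNA host genes are transcribed in most cells, and their introns give the snoRNAs that guide RNA modification. Of 8 under the rule, PBS peaks lay on 6, lysine peaks on 5 and peaks of both lists on 4, and the covered length summed to 976 bp in PBS against 1312 bp in lysine. That direction came from Snhg15 alone: without it the sums were 817 and 561 bp, and the median difference over the 8 genes, lysine minus PBS, was -5 bp. Snhg5 had 130 bp in PBS and 120 bp in lysine (folds 7.91 and 6.41), Dancr 144 and 134 bp, and Snhg3 239 and 247 bp. In these 3 genes the lists differed by 10 bp or less. Snhg15 had 159 bp in PBS against 751 bp in lysine, as its lysine peak of 974 bp ran farther into the gene than its PBS peak of 358 bp. Snhg17 (144 bp) and Snhg20 (160 bp) had a peak in PBS only and Snhg4 (60 bp) in lysine only, and Snhg11 had none.

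Of 11 miRNA host genes under the rule, Mir22hg had a peak in both lists and Mir670hg in PBS only (295 bp). The peak at the start of Mir22hg was 1611 bp wide in PBS and 1444 bp in lysine and lay mostly upstream, so that 302 and 322 bp fell in the gene. Its fold enrichment stood at the 96.6th percentile of the PBS list and at the 82.5th of the lysine list. The hairpin of miR-22 lies downstream of both peaks (chr11:75463716-75463810, plus strand). The mature miRNAs it gives are shown with the seed, bases 2 to 8, in capitals, to identify the product of the host gene.
mmu-miR-22-5p: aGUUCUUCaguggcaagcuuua
mmu-miR-22-3p: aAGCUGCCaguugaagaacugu

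Of 52 genes under the rule that hold a miRNA hairpin, 10 had a peak, and these host 14 of the 86 hairpins. Of these 14 hairpins 0 lay under a peak. As hairpins are short and peaks covered only part of the bodies, this carries little weight. No peak was found on Mir155hg, the host of the inflammatory miR-155, or on Mir17hg. Among 6 imprinted and X-linked lncRNAs only Ftx, a gene of the X inactivation centre, had a peak, of 304 bp in lysine. H19, Xist, Jpx, Firre and 5530601H04Rik had none. Each of 7 developmental lncRNAs taken as silent in these cells, such as Hotair, Hottip and Fendrr, had 0 bp in both lists. Among all genes under the rule 6.08% had a PBS peak and 5.11% a lysine peak. Counts this low in lists of 6 and 7 genes therefore do not set them apart.

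By the rule of most covered length, 10 genes led the set, and all 10 were covered in both lists. Gm31718 (chr8:126804707-126908370, minus strand) had 5609 bp under 9 peaks in PBS and 4376 bp under 8 peaks in lysine. The peaks were spread over the gene: the widest in PBS were 1257 and 1307 bp and those at the same places in lysine 632 and 1440 bp, and 7 of the 9 PBS peaks overlapped a lysine peak. The nearest coding gene, 22.3 kb away, is Tomm20, which encodes a receptor of mitochondrial protein import and had 352 bp in PBS and 184 bp in lysine. The next on the other side, Irf2bp2, lies 211 kb away and had 0 bp in both lists. Gm33073 had 1 wide peak in each list, of 1846 bp in PBS and 1959 bp in lysine, inside the gene and 383 kb from Mef2c, a transcription factor gene.

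The other genes of this group lie near coding genes of varied function. Gm32287, 78.7 kb from Cebpb, the gene of a transcription factor of myeloid cells and inflammation, had 3 peaks in each list at matching places, covering 1560 bp in PBS against 1835 bp in lysine. Cebpb itself had 1357 bp in PBS and 0 bp in lysine, the other direction. 2310001H17Rik, 28.8 kb from the activation marker gene Cd69, had 2112 bp in PBS and 1295 bp in lysine. Gm36486 (2146 and 1881 bp) and Gm36199 (1910 and 1507 bp) overlap each other and share 2 peaks of each list, and Gm36199 lies 24.7 kb from Pim1, a cytokine-induced kinase gene that was covered over 1736 and 1408 bp. The direction of this pair turned when peaks under a −log10 q of 2 were left out, to 254 bp longer in lysine for Gm36486 and 384 bp for Gm36199. Gm51955, 29.7 kb from Irf2bpl, had 2110 bp in PBS and 3345 bp in lysine, the second-longest in that list.

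The lists divided the same stretch of Gm19705 differently. On this gene, 53.0 kb from the zinc finger gene Zfp281, the PBS list had 1 peak of 2633 bp and the lysine list 2 peaks of 468 and 477 bp within the same stretch, giving 2521 and 945 bp in the gene. Gm33370 had 3 peaks in each list at overlapping places, covering 2896 bp in PBS against 1430 bp in lysine. The PBS peaks of 1048 and 1438 bp on it had −log10 q values of 1.99 and 1.48, and without peaks under a −log10 q of 2 the gene was 1020 bp longer in lysine. Its nearest coding gene, Anxa3, had no peak in either list.

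**Figure D2:**
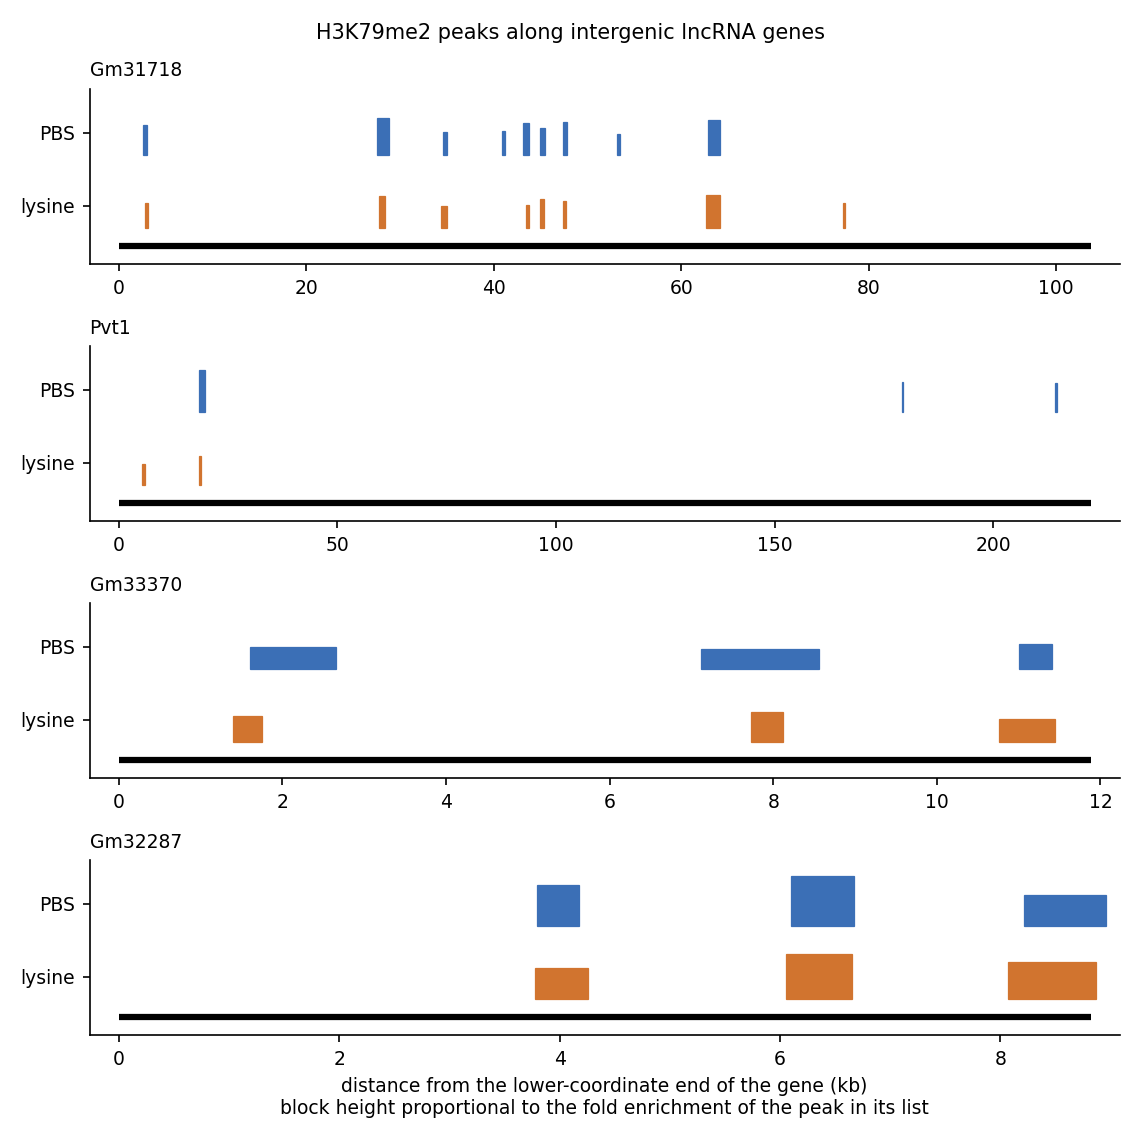
Peaks along 4 intergenic lncRNA genes, with the distance from the lower-coordinate end of the gene in kb on the x axis, PBS peaks in blue, lysine peaks in orange and the gene body as a black bar. The height of a block is proportional to the authors' fold enrichment of the peak in its own list and is not comparable between lists. Gm31718 has 9 PBS and 8 lysine peaks spread along the gene, Pvt1 shares a single position, and Gm33370 and Gm32287 have 3 peaks in each list at overlapping places.

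The genes covered in PBS only with the most covered length were Gm51701 (1909 bp), Gm40527 (1494 bp), Gm34276 (1316 bp), Gm40930 (1299 bp) and Gm30582 (1223 bp). Gm51701, 33.4 kb from the chemokine receptor gene Ccr1, had peaks of 1605 and 820 bp at its start and end. The PBS peak at the start overlapped a lysine peak that ended before the gene, and 123 bp of its promoter window lay under that lysine peak. Gm34276 and Gm40930 have the same nearest coding gene, Jarid2, which encodes a partner of the Polycomb complex, at 162 and 222 kb. Jarid2 had 922 bp in PBS and 1230 bp in lysine. The peak on Gm40930 had a fold enrichment of 3.23, and it was lost in PBS with a minimum −log10 q of 2. Parp16, 2.22 kb from Gm40527, and Rnf103, 14.7 kb from Gm30582, had no peak in either list.

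In lysine only, the most covered length was found on B230208H11Rik (1285 bp), Gm32605 (1237 bp), Gm32039 (1211 bp), Gm41421 (1203 bp) and Gm12796 (1167 bp). Each had 1 peak, with fold enrichments from 3.31 to 4.35 below the median of the lysine peaks outside the set (4.49). B230208H11Rik lies 15.1 kb from Stx11, a SNARE gene needed for the release of cytotoxic granules, which had 1094 bp in PBS and 0 bp in lysine. The peaks on B230208H11Rik, Gm32605 and Gm12796 were below a −log10 q of 2. The neighbours of the other genes were the GTPase gene Rap1b (844 bp in PBS and 424 bp in lysine), the antiproliferative gene Btg2 (219 and 88 bp), Mrtfb (0 bp in both) and the cytokine signalling kinase gene Jak1 (493 and 240 bp).

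Among genes covered in both lists, the largest drops in covered length were those of Gm34346 (2037 bp in PBS, 319 bp in lysine), Gm19705, Gm36159 (2117 and 584 bp), Gm32089 (1863 and 355 bp) and Gm33370. Gm34346 lies 31.9 kb from Atp2b1, a calcium pump gene covered over 1654 and 1376 bp. The PBS peaks on Gm34346 had fold enrichments of 3.73 and 3.78, and at a minimum fold of 4 only its lysine peak of 319 bp remained. The largest gains were those of Gm38673 and 1700016L21Rik (372 bp in PBS and 1657 bp in lysine, from the same peaks), Gm51955, A930011G23Rik (314 and 1347 bp) and 2410080I02Rik (819 and 1842 bp). Gm38673 lies 2.97 kb from Dock10, which went the other way, from 3102 bp in PBS to 1957 bp in lysine. A930011G23Rik had 1 PBS peak and 4 lysine peaks, 3 of them without a PBS partner. 2410080I02Rik, 4.12 kb from the transcription factor gene Klf9, had a wider lysine peak, 2058 bp against 819 bp, but by narrow blocks it was the shorter in lysine, with a difference of -501 bp.

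The peaks of highest fold enrichment did not lie on the genes with the most covered length. In PBS the highest fold enrichments were 10.8 on Gm34157, 1.84 kb from the corepressor gene Tle3, 10.6 on Gm41699, 6.1 kb from Cd14, the gene of the lipopolysaccharide coreceptor, and 10.5 on Gm30657. In lysine they were 13.1 on the overlapping genes Gm52237 and Gm41442, near Ppp1r2, 9.6 on B930059L03Rik, and 9.29 on 2210406O10Rik. All 7 genes had a peak in the other list as well. Gm34157 had 160 bp in PBS and 124 bp in lysine, Gm52237 612 and 560 bp, and B930059L03Rik 572 and 632 bp, so the strongest peaks covered far less than the longest ones.

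By their medians, peaks on the lncRNA genes were slightly narrower and weaker than the other peaks of their list and close to the remaining intergenic peaks. The median width was 423 bp in PBS and 418 bp in lysine, against 458 and 452 bp for all other peaks and 420 and 405 bp for other peaks over 1 kb from coding genes. The median fold enrichment was 4.35 and 4.3, against 4.53 and 4.49 for all other peaks and 4.32 and 4.25 for the other intergenic ones. Peaks of 1 kb or more made up 9.52% of the set in PBS and 9.07% in lysine, near the 9.91% and 8.49% of all other peaks and above the 7.02% and 5.69% of the other intergenic ones.

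Longer lncRNA genes more often held a peak. In PBS the share with a peak went from 3.1% of genes under 2 kb (2.0 to 4.58) to 12.6% of genes of 50 kb or more (10.0 to 15.6), and in lysine from 2.58% to 10.3%. Protein-coding genes of these lengths had a PBS peak in 6.55% and 45.2%, and the coding share was the higher in all 6 length bins. Genes with a peak had a median length of 14300 bp, and those without 8290 bp.

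Within the genes, peaks were found most often inside and, per position, most densely at the start. The strand was known for 434 of the 562 genes, those with a promoter window in the table. A peak was placed by its nearest base, at the start first and then at the end. Of 401 PBS peaks on these genes 28.7% (24.3 to 33.4) reached to within 1 kb of the start, 9.23% to within 1 kb of the end, and 62.1% lay inside. In lysine the shares of 321 peaks were 30.2% (25.2 to 35.6), 11.5% and 58.3%. In genes of 5 kb or more, the start base lay under a PBS peak in 1.31% of the lncRNA genes and 26.8% of the coding genes, and the base 500 bp downstream in 0.552% and 5.79%. In lysine the values at the start were 0.999% and 25.3%. Both kinds of gene thus had the highest share near the start, at very different heights. A total of 97 PBS peaks (19.2%) and 82 lysine peaks (20.1%) ran out of the lncRNA gene body, past its start or its end. Of these, 3 PBS peaks and 1 lysine peak reached a coding gene: that on 2900052L18Rik reached Bahcc1 in both lists, and in PBS those on 1600020E01Rik and Gm20735 reached Pcbp1 and Mvd.

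**Figure D3:**
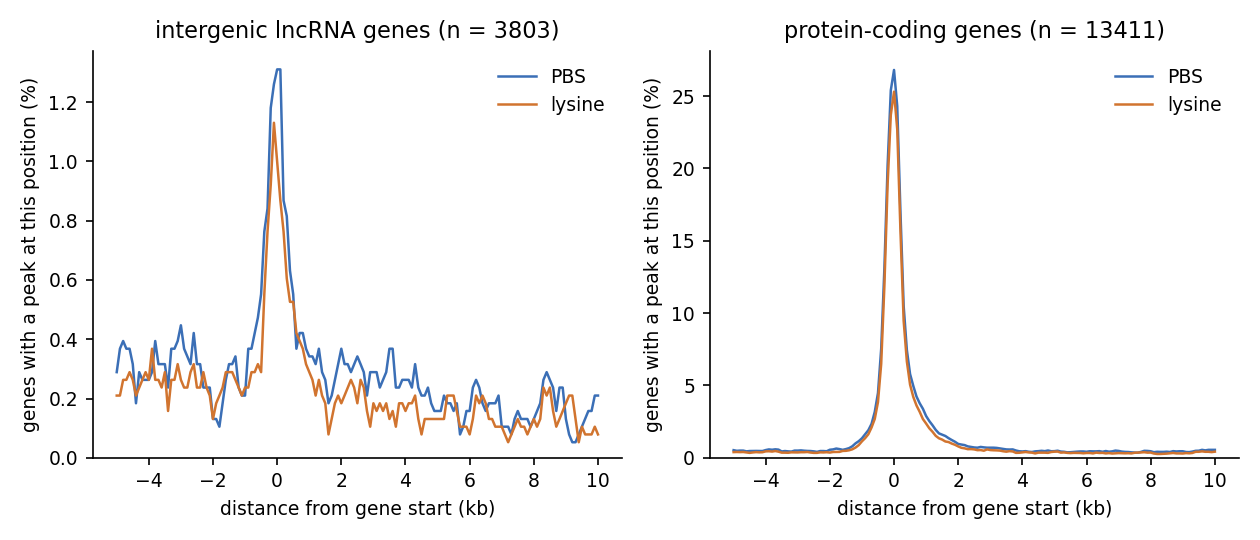
Share of genes (%) with a peak at each position from 5 kb before to 10 kb after the gene start, in steps of 100 bp, for 3803 intergenic lncRNA genes (left) and 13411 protein-coding genes (right) of 5 kb or more, PBS in blue and lysine in orange. The y axes differ: the lncRNA genes reach 1.31% and the coding genes 26.8% in PBS. In both panels the share is highest at or within 100 bp of the start.

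Counted by peak, 62.6% of PBS peaks within 1 kb of the start overlapped a lysine peak against 49.0% of those inside, and 71.1% against 67.4% of lysine peaks overlapped a PBS peak. Counted by gene, no such gap was seen. Of 159 genes with a peak within 1 kb of the start 46.5% (38.6 to 54.6) were covered in both lists, and of 275 genes with peaks elsewhere only 47.6% (41.6 to 53.7). The first were shorter genes, with a median length of 7.73 kb against 22.8 kb.

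Covered lncRNA genes lay beside covered coding genes more often than uncovered ones did. The peaks of the set were a median of 40.4 kb from the nearest coding gene in PBS (quartiles 17.0 and 86.7) and 43.3 kb in lysine (16.9 and 84.1). The nearest coding gene had a peak in the same list for 59.1% of the lncRNA genes with a PBS peak (54.4 to 63.7) and for 36.4% of those without (35.2 to 37.5). In lysine the shares were 51.1% (45.9 to 56.2) and 33.1% (32.0 to 34.3). The share was the higher with a peak in every distance bin of both lists. The intervals overlapped at 5 to 10 kb in PBS, and at 1 to 5, 10 to 20 and 50 to 100 kb in lysine. In PBS the gap was widest beyond 100 kb: 72.9% of 70 lncRNA genes with a peak (60.9 to 82.8) and 33.6% of 2066 without (31.6 to 35.7) had a covered neighbour. In lysine these were 50.9% of 53 (36.8 to 64.9) and 30.1% of 2083 (28.1 to 32.1). The lncRNA genes themselves had a PBS peak in 8.94% at 1 to 5 kb from a coding gene (7.1 to 11.1) and in 3.28% beyond 100 kb (2.56 to 4.12).

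The direction of the difference was not shared between neighbours. Of 223 lncRNA genes shorter in lysine with a covered neighbour, 132 neighbours (59.2%) were shorter in lysine too. Of 133 lncRNA genes longer in lysine, 44 neighbours (33.1%) were longer and 89 (66.9%) shorter. Shorter neighbours thus prevailed on both sides, as they did among protein-coding genes with a peak in either list (58.2% shorter). The pairs of Pvt1 with Myc and of Morrbid with Bcl2l11 were shorter in lysine on both sides, whereas Gm32287 with Cebpb and Gm38673 with Dock10 went in opposite directions.

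Covered promoter windows of lncRNA genes more often held 10 or more CpGs than uncovered ones. A window of 300 bases was in the table for 5516 of the 7322 genes, and for 5345 it lay at the outer 5′ end of the gene body to within 1 bp. Of 129 genes with a covered window 115 also had a peak in the body, and the others are outside the set. Some windows overlap, such as those of 4833417C18Rik and Gm38959, and were counted separately. The 61 windows covered in both lists had a median of 14 CpGs (quartiles 6 and 22), among them those of Snhg5, Dancr and Mir22hg printed above, and 62.3% of them (49.0 to 74.4) had 10 or more. The 44 covered in PBS only had a median of 4 CpGs and 29.5% (16.8 to 45.2) with 10 or more, and the 24 covered in lysine only 8.5 CpGs and 45.8% (25.6 to 67.2). The 319 genes with a peak in the body and none on the window had a median of 4 CpGs and 11.6% (8.3 to 15.6), as in the windows of Gm33073 and Gm34346, and the 5068 genes without a peak 3 CpGs and 7.26% (6.56 to 8.01). The share with 10 or more was thus higher for genes with peaks in the body only than for genes with no peak, with intervals that do not overlap. It was still far closer to theirs than to that of windows covered in both lists. Protein-coding windows covered in both lists had 24 CpGs and 96.0% with 10 or more, and over all 27025 windows of the table the share was 44.0%.

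Of 5 short motifs searched on both strands, the GC box GGGCGG differed most between these groups. It was in 50.8% (37.7 to 63.9) of the 61 lncRNA windows covered in both lists, in 8.13% (7.39 to 8.92) of those without a peak, in 73.4% of coding windows covered in both and in 35.9% of all windows. It holds a CpG itself. TGANTCA, the AP-1 type sequence, was in 19.7% (10.6 to 31.8) of the 61 windows, 10.7% (9.82 to 11.5) of those without a peak and 7.92% of all windows. TATAAA (11.5%, 18.6% and 14.2%), the E-box CACGTG (11.5%, 5.52% and 7.24%) and the ETS type sequence GAGGAAGT (3.28%, 3.65% and 3.25%) had wide intervals in the 61 windows that include the share of all windows. These are matches of letters and do not show that a factor was bound.

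**Figure D4:**
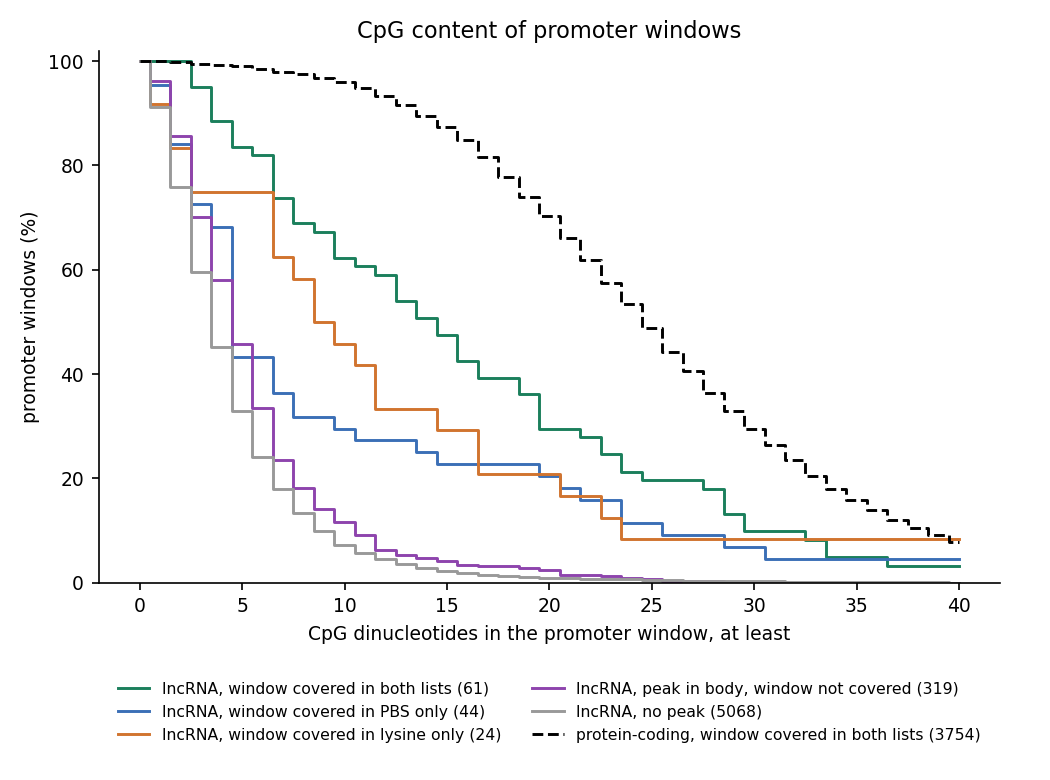
Share of promoter windows (%) with at least the number of CpG dinucleotides on the x axis, for lncRNA genes by coverage of the window and body (lines, with the number of windows in brackets) and for protein-coding windows covered in both lists (dashed). Windows of lncRNA genes covered in both lists lie between the coding windows and the other lncRNA windows from 3 to 20 CpGs, with 62.3% at 10 or more against 7.26% for genes without a peak.

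Whether a peak of the set was met in the other list went with its strength. Over the set 53.6% of PBS peaks (49.1 to 58.0) and 65.9% of lysine peaks (61.1 to 70.5) overlapped a peak of the other list by at least 1 bp, against 62.3% (61.4 to 63.2) and 75.7% (74.9 to 76.6) of all other peaks. With each list split by −log10 q into 4 bins of like size, the share in the weakest PBS bin was 26.4% (19.3 to 34.5), and in the strongest 91.2% (84.3 to 95.7). In lysine these bins gave 46.6% (37.4 to 56.0) and 91.5% (82.5 to 96.8). In each bin of both lists the set was below all other peaks, but its intervals overlapped those of all other peaks, and those of the other intergenic peaks, in all 8 bins. The weakest 2 bins of the whole list held 27.8% and 28.0% of the PBS peaks of the set, and 28.9% and 28.4% of the lysine peaks. Width went the same way in PBS, where peaks under 400 bp were met in 34.2% and those of 1 kb or more in 87.5%. In lysine the share was 52.5% under 400 bp, 87.8% in the bin just below 1 kb and 83.8% at 1 kb or more. For lysine peaks in the bin that starts at 400 bp, the set had 70.6% (62.4 to 77.9). All other peaks there had 83.4% (82.1 to 84.6), and these intervals do not overlap. In the other width bins of both lists they overlapped. Among PBS peaks of 1 kb or more the set was above all other peaks (79.1%).

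**Figure D5:**
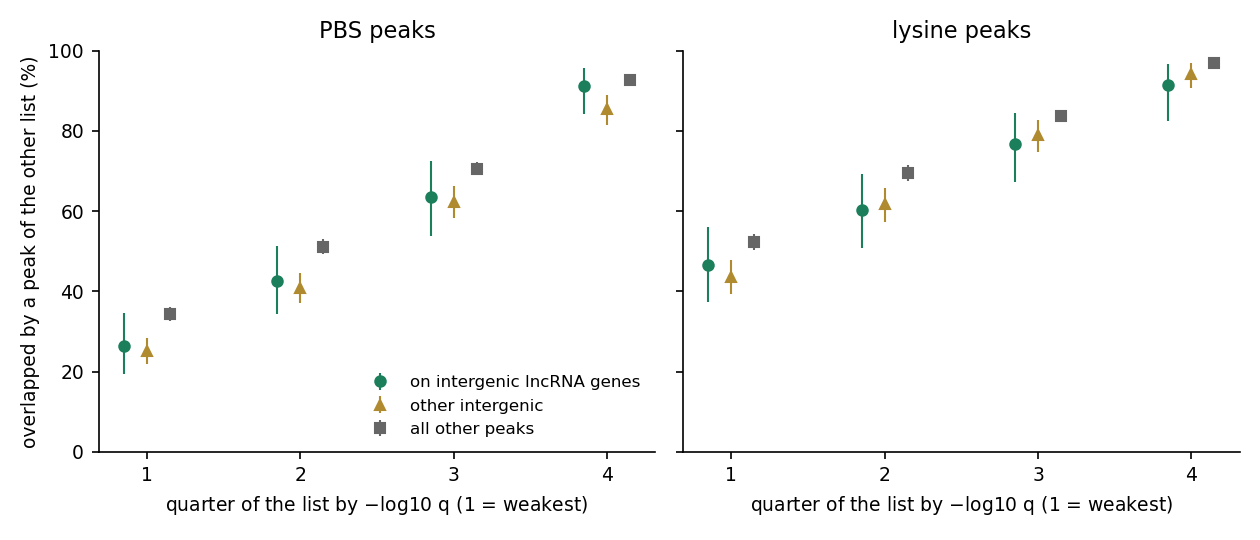
Share of peaks (%) overlapped by a peak of the other list, in 4 bins of the whole list by −log10 q (1 is the weakest), for PBS peaks (left) and lysine peaks (right), with 95% Clopper-Pearson intervals as bars. Peaks on intergenic lncRNA genes (green) rise from 26.4% to 91.2% in PBS and from 46.6% to 91.5% in lysine, near the other intergenic peaks (ochre) and slightly below all other peaks (grey).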

How the data were processed

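H3K79me2 ChIP and input DNA of formaldehyde-fixed BMDCs was sequenced from both fragment ends, per the labels' protocols. Tools listed in the submitters' processing notes are MACS2 2.1.2, Bowtie2 2.3.4.1, Trimmomatic 0.38, cutadapt 1.18, ChIPseeker, Picard and FastQC, and the build is GRCm38. Settings and calling thresholds, and whether inputs were controls, are not stated in the sources used here. The deposited files are broad and gapped peak lists, 1 of each per H3K79me2 library, without headers. Of each peak the authors deposited a fold enrichment (a linear ratio to the local background), −log10 p, −log10 q and a score derived from it. These depend on depth and served only to rank, filter and describe the peaks of 1 list.

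The RefSeq gene table (GRCm38.p6) has no exons or strand, so exons and introns were not separated. Strands and promoter windows came from the RefSeq promoter sequences. Covered lengths were computed in Python 3.11.15 with numpy 2.4.6, pandas 2.3.3 and scipy 1.17.1, tested on simulated data with 0 errors, and checked against bedtools 2.31.1 with 0 differences over 7322 genes. Figures were drawn with matplotlib 3.10.9. No test between conditions was possible.

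Named genes were the 10 with the most covered length in both lists together, the 5 with the most in 1 list and none in the other, the 5 largest losses and gains, the genes of the 3 peaks of highest fold per list, and every gene with a peak from 5 lists (snoRNA hosts, miRNA hosts, immune or myeloid, imprinted and X-linked, developmental). The members, lists and rules were chosen with earlier results of these data known. Alternatives varied peak strength, the number of peaks, narrow blocks, the overlap rule and the distance from coding genes.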

Additional observations from a re-analysis of the deposited data

How the results depend on the processing

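With a minimum −log10 q of 5 the set held 160 PBS and 114 lysine peaks on 158 and 119 genes, with 82554 and 57873 bp covered. Then 83 genes had a peak in both lists, 75 in PBS only and 36 in lysine only, and 71.9% of the lysine peaks were met in PBS. With a fold of at least 4, 267 lysine peaks remained and 67 genes had a peak in lysine only. With equal numbers of peaks 62.7% of PBS peaks and 60.8% of lysine peaks were met in the other list, and with at least 50% of the peak overlapped 47.4% of PBS peaks. The lysine to PBS ratio of covered bp stayed below 1, from 0.701 to 0.955 over all alternatives run. The other counts and shares stayed within 1.5 times or within the interval of the reported value.

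Of 48 named genes 7 turned under at least 1 of 7 alternatives, as lysine minus PBS, and only 11 neither turned nor fell to no difference under any of them. Gm33370 went to 1020 bp (−log10 q of at least 2, and equal numbers), 340 bp (fold of at least 4) and 56 bp (narrow blocks). Gm36486 went to 254 bp (−log10 q of at least 2, equal numbers) and 281 bp (−log10 q of at least 5, fold of at least 4), and Gm36199 to 384 bp under these 4. Gm30657 went to -47 bp (−log10 q of at least 5), Gm34346 to 319 bp (fold of at least 4), and by narrow blocks 2410080I02Rik to -501 bp and Oip5os1 to -170 bp. Weaker peaks, missing under the stricter minimum by construction, leave 26 of the 48 equal in both lists under the minimum of 5. The cause of the other changes was not tested. No paired analysis was possible because each condition has 1 H3K79me2 library. Depth is unknown, so a peak missing from 1 list may lie below its detection limit.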

Other observations

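A few coding genes have several covered lncRNA genes around them. The 562 lncRNA genes have 485 different nearest coding genes, so that some are counted with the same neighbour, and 7 of these are nearest to 3 or more. The largest group, 4 genes around the adhesion receptor gene Adgrl2, was covered over 2130 bp in PBS against 2231 bp in lysine, and the 3 genes around Azin1 (1241 and 1157 bp) and the 3 around Tle3 (579 and 414 bp) also differed little. Around Id2, the gene of an inhibitor of helix-loop-helix factors needed for dendritic cell development, Gm36287, Gm46343 and Gm36723 had 2348 bp covered together in PBS and 1389 bp in lysine, at 43.4, 208 and 260 kb, while Id2 had 160 and 237 bp. Around Jarid2, Gm33958, Gm40930 and Gm34276 had 3007 bp in PBS against 372 bp in lysine, and Jarid2 had 922 and 1230 bp. The 3 genes near Cd47, which encodes the signal against phagocytosis, had 1148 and 445 bp, and Cd47 2075 and 2062 bp. In the other direction, 3 genes near Tent5c had 458 bp in PBS and 1171 bp in lysine, while Tent5c had 435 and 62 bp. These genes were chosen after their values were seen, and with 1 library per condition no difference was tested.

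Some other genes of the set near immune genes, also chosen after their values were seen, differed between the lists. Gm33504, 4.82 kb from the interferon-induced gene Ifitm3, had a peak of 1901 bp in PBS and of 534 bp in lysine, and Ifitm3 had 0 bp in both. Gm38933, 1.94 kb from the chemokine gene Ccl6, had 1630 bp in PBS and 790 bp in lysine. Gm40645, 23.4 kb from the inhibitory receptor gene Lilrb4a, had 845 bp in PBS under 2 peaks and 1826 bp in lysine under 1 peak that spans both. Trp53cor1 (lincRNA-p21), 11.9 kb from the p53 target gene Cdkn1a, had 227 bp in lysine and 0 bp in PBS, and Cdkn1a had 2251 and 2214 bp.

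AY036118 differed from the rest of the set in its peak: 5482 bp wide in PBS and 5435 bp in lysine, with the low fold enrichments of 2.15 and 2.27 and −log10 q values of 25.9 and 29.9. This peak also covers the ribosomal RNA pseudogene Rn18s-rs5, and 650 and 643 bp of it fell in the lncRNA gene. By chromosome, 3 of 188 genes under the rule on the X (1.6%) and 0 of 30 on the Y had a peak in either list, against 562 of all 7322. The autosomes ranged from 4.3% on chromosome 8 to 11.1% on chromosome 12. With only 30 genes on the Y, its 0 carries little weight.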
